A study of Oryza sativa with 16 samples.

Results

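A block of neighbouring loci on rice chromosome 11 was examined in panicles of DTY-IL and Swarna. It comprised all loci numbered from LOC_Os11g32500 to LOC_Os11g36620 with at least 10 estimated counts in total over the 15 libraries used. These were 195 of the 355 loci listed in that interval, and of the 33698 genes with that minimum count in the whole series. Of the other interval loci, 155 fell under the minimum, 89 of them with 0 counts, and 5 of the 7 loci excluded by name reached it. The interval had been picked because its loci differed between the genotypes in these libraries. Differences between DTY-IL and Swarna are therefore given as a description without a test. This chromosome is not among those that the study's text names as carrying fragments of the donor.

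DTY-IL is a single line derived from a cross of N22, a drought-tolerant aus landrace, with Swarna, a drought-sensitive indica cultivar, and it holds N22 fragments in a Swarna background. Plants of both genotypes were grown singly in pots in a greenhouse, so the replicates were separate plants. The study laid out the pots in randomized complete blocks. The count columns do not name the blocks, and blocks were not part of the fit. Reproductive-stage drought stress (RDS) was imposed by keeping the soil at 75% of field capacity for 9 days and then at 50% for another 3 days, while control plants stayed well watered. Whole panicles were taken on day 12 from both treatments. The 4 groups were DTY-IL drought, DTY-IL control and Swarna drought, with 4 libraries each, and Swarna control, with 3 libraries used. The remaining Swarna control library, number 3 of the count table, was removed by the study and is given separately below. Totals per library ranged from 24677520 to 31080042 counts, and the members held between 0.247% and 0.332% of them. All 13 loci of a list of floral organ genes, the MADS-box genes and DL that specify the organs of the spikelet, were detected, none of them at 3 counts or fewer in every library.

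Backcrossing with selection replaces stretches of the recurrent parent's chromosomes with stretches of the donor's. Genes that lie side by side in such a stretch are inherited together, so a run of neighbouring genes can differ between a line and its parent while genes beyond the ends of the run are the same. Within a stretch, alleles may differ in presence, in regulation or in coding sequence. Rice chromosome 11 is known for clusters of disease resistance genes, which often differ in copy number and sequence between cultivars. The deposited counts were estimated against transcripts of Nipponbare, a japonica cultivar. A locus that is absent from a genotype, one that is silent there and one whose reads no longer match the Nipponbare transcript all give counts at or near 0, and from these counts they cannot be told apart. Counts were also shared out by estimation among near-identical transcripts, so the value of a locus with close copies is uncertain. None of the 195 members was matched to a gene name or product, and they are given by locus number only.

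Within the block, the differences between DTY-IL and Swarna lay among loci at similar levels, and they ran in both directions. At 31 members every DTY-IL library lay above, or every one below, every Swarna library, in the same direction in both treatments. DTY-IL was higher at 22 of these and lower at 9. They made up 15.9% of the members, where 2.37% of all tested genes met the same criterion, 1.28% with DTY-IL higher and 1.08% with DTY-IL lower. Among the tested genes of chromosome 11 that were not members, it was met by 39 of 2007, or 1.94%. These 2007 include the 5 tested loci of the interval that were excluded by name. On the 12 chromosomes it was met by between 0.73% and 4.18%. Members were 0.579% of all tested genes and 3.89% of those without overlap. These shares show where the block stands, and since the block was picked on this contrast nothing further is read from them.

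**Figure D1:**
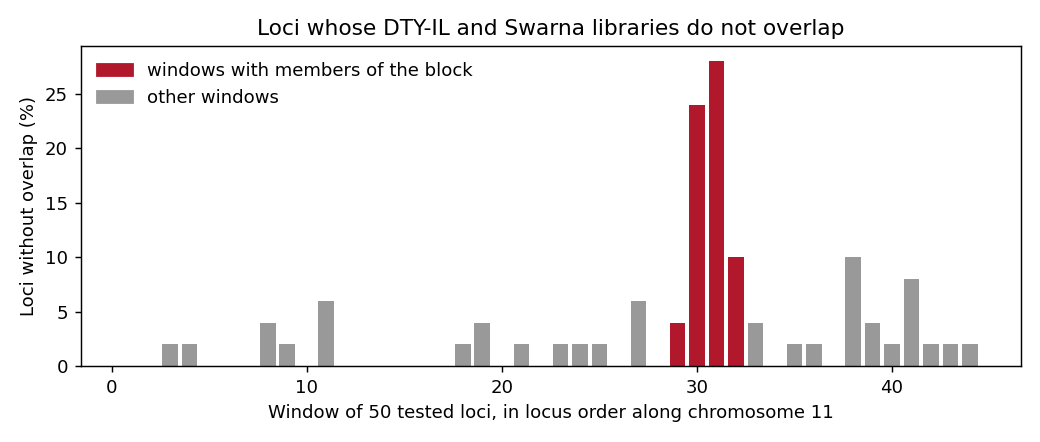
Percentage of loci at which DTY-IL and Swarna libraries did not overlap in either treatment (vertical axis), in successive windows of 50 tested loci in locus order along chromosome 11 (horizontal axis), with windows that hold members of the block in red. The windows with members stand at 4%, 24%, 28% and 10%, and the other full windows between 0% and 10%. In the window at 4%, the 2 loci without overlap were not members but loci of the interval that were excluded by name.

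The 31 members lay between LOC_Os11g34230 and LOC_Os11g36200, a span of 109 members. In it, 78 members overlapped between the genotypes in at least one treatment, and 46 of these averaged at least 20 normalized counts, that is, counts scaled to a common effective library size. Among those 46, the log2 fold change between DTY-IL and Swarna was within 0.5 of 0 in both treatments for 25. Loci at similar levels thus lay among loci that differed, and the 31 members formed 18 separate runs. All members counted for the runs, so loci with few counts also ended them. LOC_Os11g34960, for instance, had between 0 and 2 counts in every library. LOC_Os11g34990, which also ended a run, had 8, 0, 71 and 47 counts in DTY-IL drought and 0 in all Swarna libraries. The longest run with DTY-IL higher held 6 consecutive members, LOC_Os11g34760 to LOC_Os11g34824, and the longest with DTY-IL lower held 3, LOC_Os11g34880 to LOC_Os11g34920. Of the 65 members before the span, 2 were differentially expressed genes (DEGs, adjusted p up to 0.05 and a log2 fold change of 1 or more in either direction) between the genotypes under drought and 0 under control. Of the 21 members after it, 0 were DEGs in either treatment. Among all tested genes 3.36% were DEGs under drought and 1.1% under control. The span ran by definition from the first to the last locus without overlap, so few DEGs beyond its ends were partly fixed in advance.

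When the members were divided in locus order into 5 sections of 39, the first section, up to LOC_Os11g33320, held 0 loci without overlap. The second held 2, both higher in DTY-IL. The third, from LOC_Os11g34450 to LOC_Os11g35080, held 12 higher and 6 lower in DTY-IL. The fourth held 5 higher and 2 lower, and the fifth, from LOC_Os11g35870, held 3 higher and 1 lower. The median absolute difference between DTY-IL and Swarna, in log2 of normalized counts plus 1, was likewise largest in the third section, at 1.44 under drought and 1.08 under control. In the first section it was 0.36 under drought and 0.53 under control, and in the second 0.31 and 0.21. In the fourth it was 0.89 and 0.58, and in the fifth 0.44 and 0.41.

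**Figure D2:**
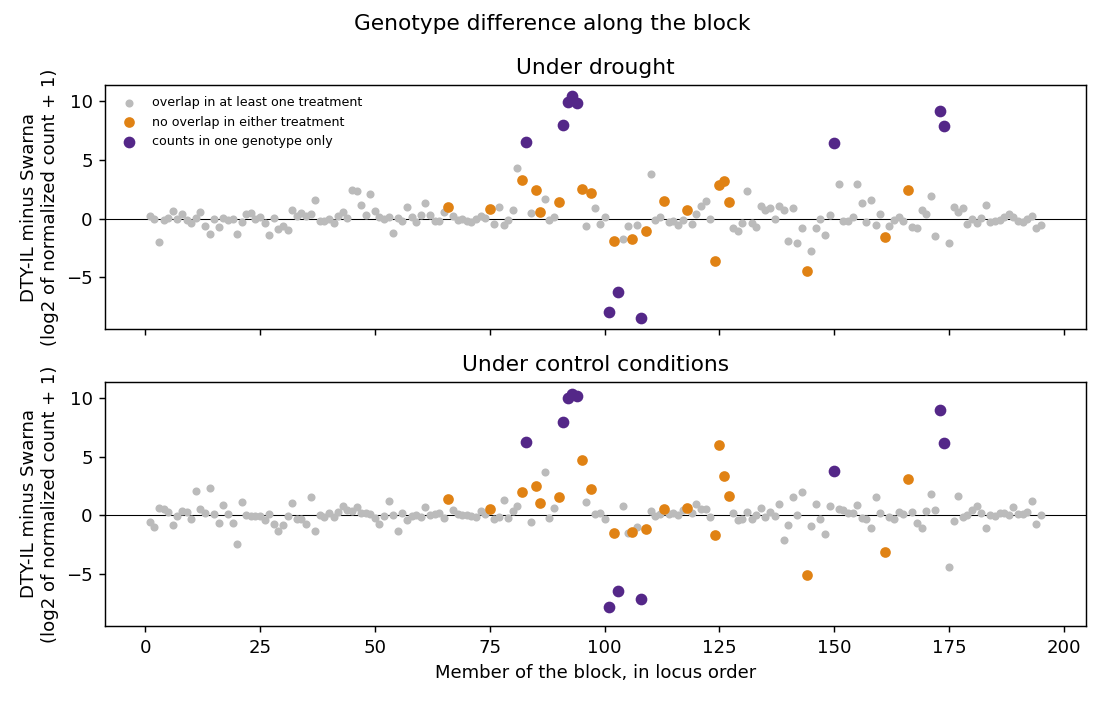
Difference between the DTY-IL mean and the Swarna mean of log2(normalized count + 1) for each of the 195 members in locus order, under drought (top) and under control (bottom), with no error bars. The 11 loci with counts in 1 genotype only are purple and the other 20 loci without overlap orange, and all of them lie in the stretch between the 65 members before and the 21 members after the span, where loci near 0 lie among them.

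The DEG criterion is used between the genotypes only as a fixed limit for counting, since the block was picked on this contrast. It was met by 31 members, or 15.9%, under drought, against 3.36% of all tested genes, with 22 higher in DTY-IL (2.09% of all genes) and 9 lower (1.26%). Under control 24 members, or 12.3%, met it, against 1.1% of all genes, with 16 higher in DTY-IL (0.599%) and 8 lower (0.502%). In both treatments 22 members met it (11.3%, against 0.822% of all genes), under drought alone 9 (4.62%, against 2.53%) and under control alone 2 (1.03%, against 0.279%). The median absolute log2 fold change between the genotypes was 0.70 over the members and 0.37 over all tested genes under drought, and 0.56 and 0.29 under control. With loci absent from a group entered at their lower bound, or left out where no bound could be set, the medians over the members became 0.66 under drought and 0.43 under control.

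At 11 members the difference was one of detection. These had at most 3 counts in every library of one genotype and at least 20 in every library of the other, and all lay between LOC_Os11g34650 and LOC_Os11g36200. Of them, 8 had counts in DTY-IL only (4.1% of the members, against 0.0861% of all tested genes) and 3 in Swarna only (1.54%, against 0.0564%). Together they were 5.64% of the members, against 0.142% of all tested genes. They were 22.9% of the 48 such genes in the series, and 11 of the 15 on chromosome 11. The highest count in the other genotype was 3, while counts in the genotype with detection ran between 21 and 2052. At 5 of the 11 every library of the other genotype stood at 0. Folds below are lower bounds against a floor of 3 counts over the group at 0, and cover counting error only.

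The most abundant of these were neighbours. LOC_Os11g34790 had 940, 1303, 897 and 893 counts in DTY-IL drought and 1175, 1157, 1082 and 806 in DTY-IL control, against 0 in each of the 7 Swarna libraries. It was at least 1270-fold higher in DTY-IL than in Swarna under drought and at least 1030-fold higher under control. Beside it, LOC_Os11g34810 had 1459, 1435, 1211 and 1441 counts in DTY-IL drought and 2052, 1657, 1675 and 1348 in DTY-IL control, against 0 in every Swarna drought library and 0, 1 and 0 in Swarna control. At LOC_Os11g34820 the DTY-IL drought libraries had 1611, 1864, 1550 and 1479 counts and the DTY-IL control libraries 1426, 1398, 1215 and 754, against 1, 0, 1 and 1 in Swarna drought and 0 in each Swarna control library. The 3 loci were thus among the well expressed members of DTY-IL panicles in either treatment, and at the limit of detection in Swarna.

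LOC_Os11g34770, in the same run, had 267, 366, 169 and 220 counts in DTY-IL drought and 320, 240, 189 and 273 in DTY-IL control, against 0 in all Swarna libraries, a difference of at least 323-fold under drought and at least 250-fold under control. LOC_Os11g34650, the first of the 11, had 97, 112, 84 and 70 counts in DTY-IL drought and 82, 79, 80 and 61 in DTY-IL control, again against 0 throughout in Swarna, at least 115-fold and at least 73.7-fold higher in DTY-IL. Neither locus showed a library of DTY-IL near the Swarna level.

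A second group lay near the end of the span. LOC_Os11g36190 had 584, 975, 550 and 651 counts in DTY-IL drought and 528, 715, 456 and 399 in DTY-IL control, against 0, 0, 0 and 1 in Swarna drought and 0 in Swarna control, where DTY-IL was at least 512-fold higher. Its neighbour LOC_Os11g36200 had 258, 635, 439 and 344 counts in DTY-IL drought and 185, 181, 85 and 156 in DTY-IL control, against 0, 3, 0 and 1 in Swarna drought and 0, 3 and 1 in Swarna control. LOC_Os11g35660 had 184, 210, 82 and 133 counts in DTY-IL drought and 23, 40, 82 and 21 in DTY-IL control, against 1, 1, 0 and 1 in Swarna drought and 2, 2 and 1 in Swarna control. Of the 8 loci detected in DTY-IL, LOC_Os11g35660 came closest to the limit, through its control libraries.

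The 3 loci detected in Swarna only lay close together, between the DTY-IL runs. LOC_Os11g34880 had 0 counts in all 8 DTY-IL libraries, against 213, 327, 226 and 184 in Swarna drought and 212, 208 and 245 in Swarna control. The Swarna level was at least 334-fold higher than that of DTY-IL under drought and at least 303-fold higher under control. LOC_Os11g34970 also had 0 counts in all DTY-IL libraries, against 342, 403, 305 and 324 in Swarna drought and 163, 87 and 181 in Swarna control, with Swarna at least 483-fold higher under drought and at least 196-fold higher under control. LOC_Os11g34920, chosen after its values were seen because it completes the 11, had 1, 0, 0 and 0 counts in DTY-IL drought and 0 in DTY-IL control, against 57, 107, 124 and 73 in Swarna drought and 69, 83 and 120 in Swarna control. At none of the 3 did a library of DTY-IL come near a library of Swarna.

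**Figure D3:**
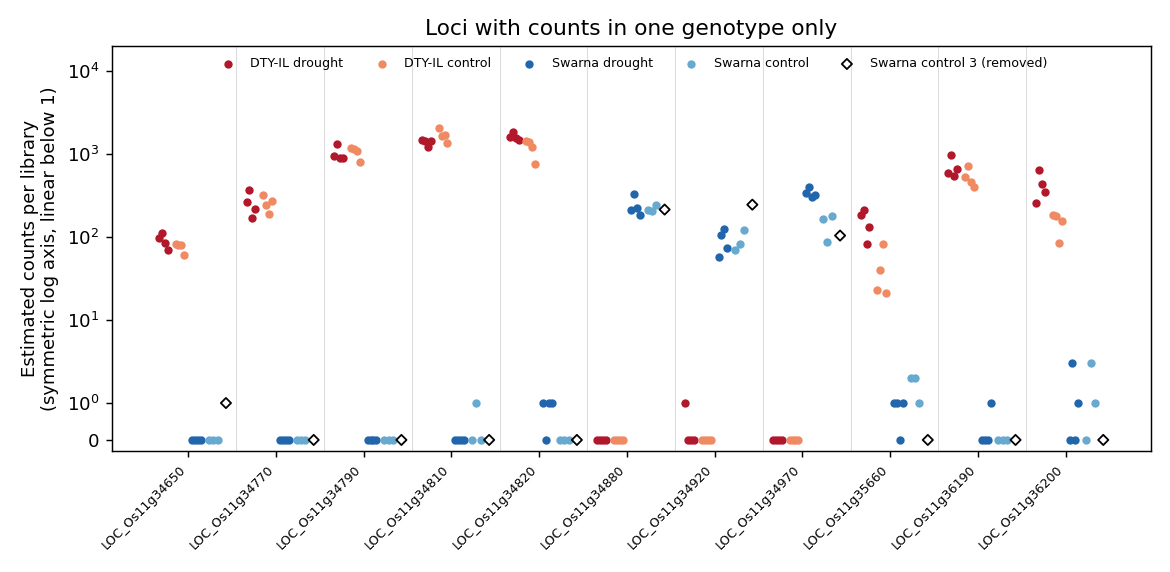
Estimated counts per library, on a symmetric log axis that is linear below 1, of the 11 loci with counts in 1 genotype only, in locus order. Within each locus the points run from DTY-IL drought and DTY-IL control to Swarna drought and Swarna control, with the removed Swarna control library as an open diamond. At 8 loci the Swarna points lie between 0 and 3, at LOC_Os11g34880, LOC_Os11g34920 and LOC_Os11g34970 the DTY-IL points lie between 0 and 1, and the diamond follows Swarna at all 11.

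The removed Swarna control library was not among the libraries on which the block was picked, and carries the same label as the other Swarna control libraries. The DTY-IL control libraries set beside it were among them, so the comparison is independent of that choice only in part. At the 8 loci detected in DTY-IL it had between 0 and 1 counts. At the 3 detected in Swarna it had 214 counts at LOC_Os11g34880, 245 at LOC_Os11g34920 and 104 at LOC_Os11g34970. On counts scaled together with all 16 libraries, at the 22 members without overlap that were higher in DTY-IL, it lay below every DTY-IL control library in 20 and between them in 2. At the 9 that were lower in DTY-IL it lay above every DTY-IL control library in 8 and between them in 1. Over all tested genes without overlap the library took the Swarna side at 82.2% of the 432 with DTY-IL higher and at 65.8% of the 365 with DTY-IL lower. Its departures in the block included LOC_Os11g36090, where it had 78 counts, against 107, 161, 125 and 79 in DTY-IL control and 10, 8 and 21 in the other Swarna control libraries.

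At the other 20 members without overlap, both genotypes usually had counts but at different levels, with DTY-IL higher at 14 and lower at 6. The mean difference over both treatments was over 4-fold at 10 of them and under 2-fold at 3, and 11 were DEGs in both treatments. LOC_Os11g34690 averaged 477 ± 37.7 normalized counts in DTY-IL drought and 361 ± 67.3 in DTY-IL control (SD, n = 4 each), against 85.5 ± 12.0 in Swarna drought (n = 4) and 61.3 ± 3.30 in Swarna control (n = 3). Its libraries were at 431, 514, 463 and 501 in DTY-IL drought and at 273, 428, 347 and 395 in DTY-IL control, against 94.9, 96.6, 77.5 and 72.9 in Swarna drought and 57.9, 64.5 and 61.5 in Swarna control. The lowest DTY-IL library was well above the highest Swarna library, and the fold between the genotypes was 5.57 under drought and 5.88 under control.

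LOC_Os11g36090 was at 113, 188, 168 and 128 normalized counts in DTY-IL drought and at 98.2, 146, 118 and 88.7 in DTY-IL control, against 28.3, 46.3, 21.2 and 16.6 in Swarna drought and 10.2, 7.71 and 20.8 in Swarna control. That was a fold of 5.28 under drought and 8.69 under control. With the removed Swarna library included, its log2 fold change under control was 1.37 in place of 3.12. LOC_Os11g34840 was at 106, 122, 108 and 111 in DTY-IL drought and at 113, 109, 117 and 57.3 in DTY-IL control, against 36.4, 14.4, 26.6 and 22.1 in Swarna drought and 16.3, 13.5 and 34.7 in Swarna control. One DTY-IL control library of LOC_Os11g34840 stood apart from the other three, but still above all Swarna libraries.

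LOC_Os11g35290, LOC_Os11g35300 and LOC_Os11g35310 formed a run of 3 neighbours, all higher in DTY-IL. LOC_Os11g35290 had 10, 12, 4 and 3 counts in DTY-IL drought and 64, 64, 134 and 30 in DTY-IL control, against 0 in all Swarna libraries. It was at least 9.16-fold higher in DTY-IL under drought and at least 71.3-fold higher under control. LOC_Os11g35300 had 20, 37, 39 and 24 counts in DTY-IL drought and 47, 6, 15 and 44 in DTY-IL control, against 1, 2, 2 and 4 in Swarna drought and 4, 1 and 0 in Swarna control, so that the lowest DTY-IL control library, with 6 counts, was just above the highest of Swarna, with 4. LOC_Os11g35310 was at 230, 207, 230 and 205 normalized counts in DTY-IL drought and at 459, 143, 694 and 252 in DTY-IL control, against 73.7, 86.3, 75.4 and 100 in Swarna drought and 118, 142 and 68.4 in Swarna control. Its control libraries were widely spread in DTY-IL, and the lowest of them was barely above the highest of Swarna.

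Of the members lower in DTY-IL, LOC_Os11g34910 averaged 109 ± 11.4 normalized counts in DTY-IL drought and 104 ± 15.4 in DTY-IL control, against 424 ± 59.1 in Swarna drought and 298 ± 65.3 in Swarna control. LOC_Os11g34950 was at 214, 216, 191 and 180 in DTY-IL drought and at 167, 185, 157 and 171 in DTY-IL control, against 553, 741, 814 and 665 in Swarna drought and 424, 478 and 505 in Swarna control. For both loci the DTY-IL libraries were tightly grouped, with the Swarna level 3.46-fold that of DTY-IL at LOC_Os11g34950 under drought and 2.76-fold under control. LOC_Os11g34980 averaged 70.2 ± 5.53 in DTY-IL drought and 58.6 ± 19.9 in DTY-IL control, against libraries at 146, 161, 134 and 160 in Swarna drought and at 145, 112 and 135 in Swarna control. LOC_Os11g35550 had 0 counts in all DTY-IL libraries, against 10, 46, 24 and 14 in Swarna drought and 30, 35 and 33 in Swarna control, which put Swarna at least 33.1-fold higher under drought and at least 44.6-fold higher under control.

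**Figure D4:**
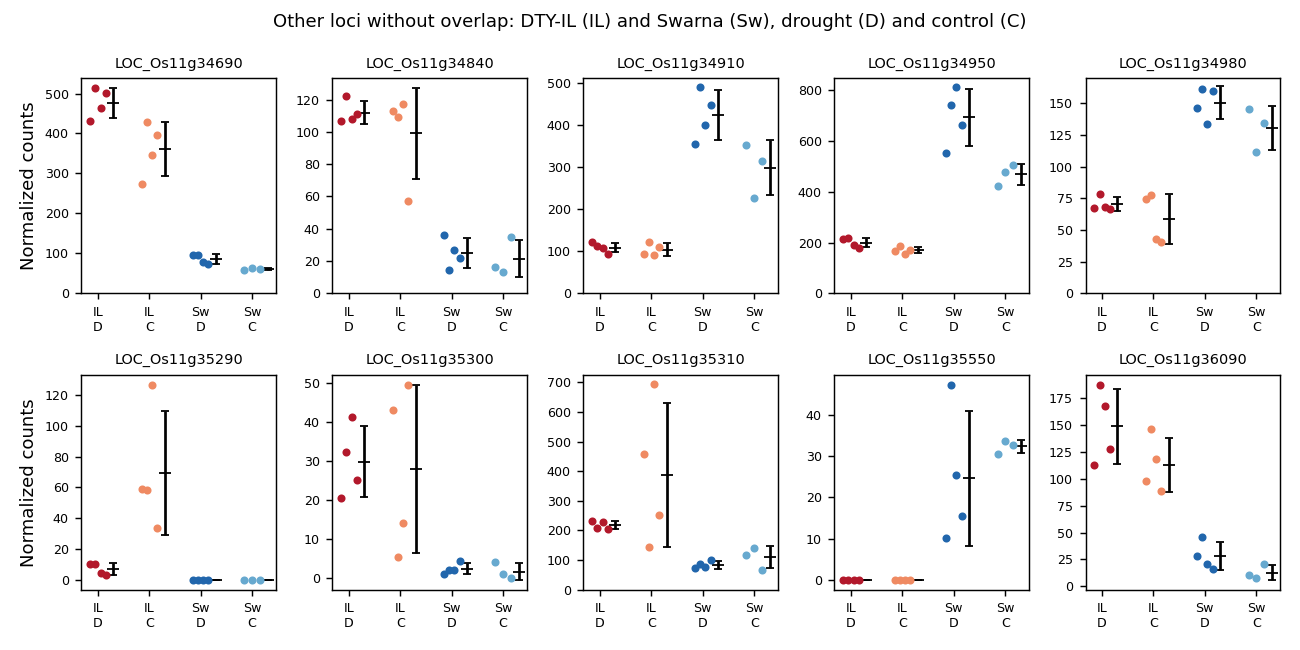
Normalized counts per library of the 10 named loci without overlap that are not among the 11 of detection in 1 genotype, each in a panel of its own with a linear axis from 0. Coloured points are libraries, and the black bar beside them is the mean with its SD (n = 4, or n = 3 in Swarna control). DTY-IL (IL) stands above Swarna (Sw) at 6 loci and below it at LOC_Os11g34910, LOC_Os11g34950, LOC_Os11g34980 and LOC_Os11g35550, under drought (D) and control (C) alike.

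Many abundant members inside and around the span were at similar levels in both genotypes. The 3 with the most normalized counts were LOC_Os11g34450, LOC_Os11g34350 and LOC_Os11g36430. LOC_Os11g34450 averaged 11235 ± 2709 in DTY-IL drought and 14175 ± 2494 in DTY-IL control, against 12139 ± 818 in Swarna drought and 16476 ± 1926 in Swarna control. LOC_Os11g36430 averaged 2577 ± 247 in DTY-IL drought and 2575 ± 255 in DTY-IL control, against 2735 ± 314 in Swarna drought and 2246 ± 95.5 in Swarna control. LOC_Os11g34350 averaged 9105 ± 1588 in DTY-IL drought and 4821 ± 452 in DTY-IL control, against 7800 ± 550 in Swarna drought and 3658 ± 223 in Swarna control. The genotypes overlapped in both treatments at LOC_Os11g34450 and under drought at the other two, where every DTY-IL control library was above every Swarna control library by a small margin. Over all members the mean level ranged between 0.66 and 13308 normalized counts with a median of 79.3, and 61 members averaged under 10.

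The limits of the block were set by locus number. The nearest tested loci outside it, LOC_Os11g32480 and LOC_Os11g32490 before and LOC_Os11g36679 and LOC_Os11g36740 after, overlapped between DTY-IL and Swarna in at least one treatment. LOC_Os11g32480 averaged 1524 ± 159 normalized counts in DTY-IL drought and 1547 ± 349 in DTY-IL control, against 1644 ± 265 in Swarna drought and 1861 ± 207 in Swarna control. At LOC_Os11g32490 every DTY-IL control library was below every Swarna control library, at 321 ± 109 in DTY-IL against 602 ± 72.1 in Swarna, while the drought libraries overlapped, at 76.4 ± 55.0 in DTY-IL and 112 ± 65.1 in Swarna. LOC_Os11g36740 showed the same order, at 947 ± 199 in DTY-IL control against 1242 ± 63.5 in Swarna control without overlap, and at 317 ± 92.0 in DTY-IL drought against 503 ± 207 in Swarna drought with overlap. LOC_Os11g36679 averaged under 10 normalized counts in every group. As for the limit on counts, LOC_Os11g32740, LOC_Os11g33360 and LOC_Os11g35730 were just inside it with 10 counts in total and LOC_Os11g35120 with 11. LOC_Os11g32640 with 9 and LOC_Os11g33010, LOC_Os11g34280 and LOC_Os11g34730 with 8 were just outside.

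The drought response was the comparison least tied to the choice of the block, above all when averaged over both genotypes. On average over DTY-IL and Swarna, 51 members changed under RDS, 30 higher and 21 lower, by the quasi-likelihood test of edgeR with p-values adjusted over all tested genes (Benjamini-Hochberg). These were 26.2% of the members, where 29.8% of all tested genes were called, 11.5% higher and 18.4% lower. The share of members called was thus near that of all genes with both directions pooled. By direction, 15.4% of the members were called higher, a larger share than of all genes, and 10.8% lower, a smaller one. In DTY-IL 35 members changed, 22 higher and 13 lower, or 17.9% against 19.8% of all genes (7.46% higher and 12.3% lower). In Swarna 51 changed, 27 higher and 24 lower, or 26.2% against 29.5% of all genes (11.9% higher and 17.6% lower). In both genotypes 18 members were called in the same direction (9.23%, against 15.4% of all genes) and 0 in opposite directions (against 0.0326%). The log2 fold change had the same sign in both genotypes at 142 members, or 72.8%, against 81.6% of all genes, where loci at 0 in a genotype count as having no sign. The median log2 fold change of the members was 0.17 in DTY-IL and 0.27 in Swarna, beside -0.03 and 0.00 over all tested genes. The DTY-IL count rested partly on single libraries, since it was 23 without DTY-IL drought replicate 3. With the removed Swarna control library included it was 15, with 13 higher and 2 lower, and the Swarna count was 33.

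**Figure D5:**
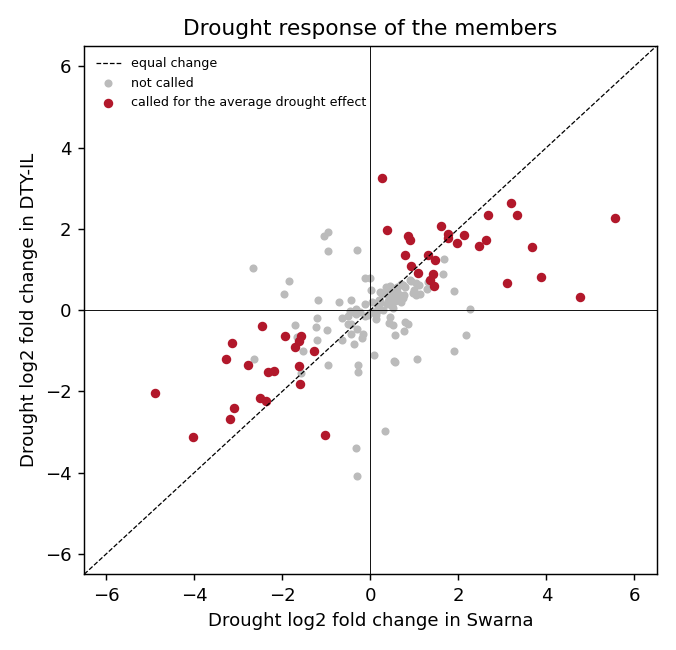
Log2 fold change of drought over control in DTY-IL (vertical axis) against that in Swarna (horizontal axis) for the 162 members with counts in all 4 groups, with the 47 of them called for the average drought effect in red and a dashed line of equal change. The 33 members with a group at 0 counts are not plotted, and the red points lie in the quadrants of equal sign.

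Lists of other tissues moved with the treatment as well. The summed level of 5 green tissue genes, of the small subunit of Rubisco and of light-harvesting proteins, ran between 15155 and 184637 normalized counts in DTY-IL drought and between 237185 and 666399 in DTY-IL control. In Swarna drought it ran between 28407 and 62185, against 369680 to 601900 in Swarna control. The 6 tapetum and anther genes summed to between 237 and 1149 in DTY-IL drought, against 1178 to 14376 in DTY-IL control, and to between 132 and 297 in Swarna drought, against 1580 to 2359 in Swarna control. The 3 late pollen genes summed to between 180 and 434 in DTY-IL drought, against 629 to 1635 in DTY-IL control, and to between 158 and 608 in Swarna drought, against 2190 to 2618 in Swarna control. No gene of these lists was at 3 counts or fewer in every library. The floral organ list summed to between 39071 and 50060 in DTY-IL drought, against 54655 to 68720 in DTY-IL control, and to between 34330 and 44246 in Swarna drought, against 63944 to 71007 in Swarna control. In whole panicles, fewer cells of a type and less RNA per cell cannot be told apart, and the part of tissue makeup in the drought changes of the members was not tested.

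Every drought library lay above every control library in both genotypes at 27 members (13.8%, against 12.4% of all tested genes) and below at 8 (4.1%, against 11.9%). The largest called increase at a mean of at least 20 normalized counts was at LOC_Os11g32890, chosen after its values were seen, whose treatments overlapped in DTY-IL. It was at 1225, 167, 1498 and 2225 in DTY-IL drought, against 147, 482, 231 and 203 in DTY-IL control, and at 2232, 2048, 2492 and 2121 in Swarna drought, against 64.0, 32.7 and 45.6 in Swarna control. Its average log2 fold change was 3.91 ± 0.46 (SE, edgeR adjusted p = 9.44e-06), and a single DTY-IL drought library lay within the range of the DTY-IL controls.

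Of the called members at that mean whose treatments did not overlap in either genotype, LOC_Os11g36500 had the largest increase. It was at 246, 140, 437 and 243 normalized counts in DTY-IL drought, against 34.0, 54.6, 44.4 and 78.6 in DTY-IL control, and at 227, 173, 412 and 265 in Swarna drought, against 36.6, 48.2 and 40.6 in Swarna control. The genotypes overlapped in each treatment, and the average log2 fold change was 2.51 ± 0.28 (SE, edgeR adjusted p = 5.79e-06). LOC_Os11g32880 was at 2282, 2667, 2745 and 2904 in DTY-IL drought, against 855, 986, 667 and 702 in DTY-IL control, and at 4108, 3574, 4235 and 4792 in Swarna drought, against 598, 606 and 835 in Swarna control. Its average log2 fold change was 2.17 ± 0.12 (edgeR adjusted p = 3.29e-08), with all Swarna drought libraries above all DTY-IL drought libraries. LOC_Os11g36110 rose by 2.02 ± 0.32 (edgeR adjusted p = 0.00013) and LOC_Os11g36150 by 1.82 ± 0.28 (edgeR adjusted p = 9.18e-05) on the log2 scale. For LOC_Os11g36150 the drought libraries were spread widely, at 388, 1598, 963 and 662 in DTY-IL and at 381, 929, 607 and 574 in Swarna.

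The largest decrease by the same rule was at LOC_Os11g33134, which was at 20.5, 6.11, 1.06 and 22.0 normalized counts in DTY-IL drought, against 126, 99.1, 79.4 and 129 in DTY-IL control, and at 8.08, 7.19, 2.12 and 27.6 in Swarna drought, against 217, 182 and 151 in Swarna control. Its average log2 fold change was -3.57 ± 0.48 (edgeR adjusted p = 3.02e-05), and in each genotype every drought library was below every control library. LOC_Os11g34680, which lies between loci that differed between the genotypes, was at 116, 14.0, 21.2 and 117 in DTY-IL drought, against 494, 526, 487 and 203 in DTY-IL control. In Swarna it was at 23.2, 37.0, 5.31 and 198 under drought, against 545, 567 and 683 under control, and the average log2 fold change was -2.93 ± 0.61 (edgeR adjusted p = 0.000997). LOC_Os11g35620 changed by -2.76 ± 0.52 (edgeR adjusted p = 0.000493) and LOC_Os11g35430 by -2.33 ± 0.36 (edgeR adjusted p = 0.000108). The removed Swarna control library had 0 counts at each of these 4 loci. At the increases named by the same rule it had 35 counts at LOC_Os11g36500, 11 at LOC_Os11g36110 and 181 at LOC_Os11g36150. At LOC_Os11g32880 it had 4162 counts, against 588, 629 and 842 in the other Swarna control libraries. The Swarna drought libraries had 4068, 3477, 3987 and 4340 counts there.

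Of the 31 members without overlap between the genotypes, 2 were called for the average drought effect, LOC_Os11g34700 at 1.16 ± 0.18 (edgeR adjusted p = 8.82e-05) and LOC_Os11g35040 at -1.10 ± 0.15 (edgeR adjusted p = 4.09e-05), both named after their values were seen. Among all tested genes 29.8% were called for it. For loci at or near 0 in a genotype this average has little meaning, and drought was read in the genotype that had counts. Of the 11 loci detected in 1 genotype, 3 were called there, where 19.8% of all tested genes were called in DTY-IL and 29.5% in Swarna. LOC_Os11g35660 rose in DTY-IL by 1.91 ± 0.41 on the log2 scale (edgeR adjusted p = 0.00361) and LOC_Os11g36200 by 1.48 ± 0.40 (edgeR adjusted p = 0.0127), and LOC_Os11g34970 rose in Swarna by 1.33 ± 0.30 (edgeR adjusted p = 0.00672). LOC_Os11g34820 changed by 0.50 ± 0.17 in DTY-IL (edgeR adjusted p = 0.04), which passed the test but was under the fold limit. At LOC_Os11g34790 the log2 fold change in DTY-IL was -0.03 ± 0.12 (edgeR adjusted p = 0.894) and at LOC_Os11g34770 it was 0.01 ± 0.25 (edgeR adjusted p = 0.988). LOC_Os11g35290, at 0 in Swarna, fell in DTY-IL with a log2 fold change of -3.27 ± 0.56 (edgeR adjusted p = 0.00268).

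Whether the drought response differed between DTY-IL and Swarna was tested as an interaction, which is itself a difference of the contrasts on which the block was picked. By edgeR 0 members passed the adjusted threshold, against 20 or 0.0594% of all tested genes. Of those genes 19 were DEGs, or 0.0564%, with 0.0326% higher and 0.0237% lower, and no member was among them. In all, 26 members had an unadjusted p under 0.05, or 13.3% beside 12.3% of all genes. By DESeq2 6 members passed the adjusted threshold, or 3.08%, against 795 or 2.36% of all genes. They were LOC_Os11g32880, LOC_Os11g32890, LOC_Os11g34210, LOC_Os11g34860, LOC_Os11g35450 and LOC_Os11g35540, of which LOC_Os11g32890, LOC_Os11g35450 and LOC_Os11g35540 also met the fold limit (1.54%, against 1.56%). An unadjusted DESeq2 p under 0.05 was reached by 29 members, or 14.9%, against 13.2%. The smallest edgeR p of a member was at LOC_Os11g34860, where the log2 fold change under drought was 0.37 ± 0.11 in DTY-IL and 1.03 ± 0.12 in Swarna. Its libraries were at 1173, 1448, 1454 and 1345 normalized counts in DTY-IL drought, against 1032, 1040, 1189 and 923 in DTY-IL control, and at 1919, 1682, 1775 and 1906 in Swarna drought, against 900, 824 and 942 in Swarna control. The difference of -0.66 ± 0.16 did not pass the edgeR threshold (adjusted p = 0.154) and passed that of DESeq2 (adjusted p = 0.0081), while the DTY-IL drought libraries all lay below those of Swarna.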

How the data were processed

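Panicle RNA libraries were sequenced on an Illumina instrument and trimmed by the study, and the authors deposited estimated counts per gene as whole numbers, made with salmon 0.7.2 against Nipponbare transcripts of the RGAP release 7 annotation and summed per gene. Separate tables with the authors' own fold changes and p-values were not used. Count columns carry a group and a number, and were assigned to groups. One Swarna control library, which the study removed, was left out of the main fit. Genes with at least 10 counts over 15 libraries were fitted in R 4.3.3 with edgeR 4.0.16 (TMM, all 4 groups, quasi-likelihood test) and adjusted by Benjamini-Hochberg over 33698 genes. The DEG limits were an adjusted p of 0.05 and a log2 fold change of 1 in either direction, as in the study's methods. Normalized counts are counts divided by the effective library size and multiplied by its mean. Medians with bounds and lower-bound folds use a floor of 3 counts over the group.

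The members and lists were chosen with earlier results of these data known. Named loci were up to 10 with counts in 1 genotype only by mean level, up to 6 in each direction among the other members without overlap and with a mean of at least 20 in the higher genotype, and up to 4 in each direction by the average drought effect at a mean of at least 20 without overlap of treatments. Added to these were the member with the smallest interaction p, the 3 most abundant, and those at the limits. A planned grouping by gene product could not be made, since 0 members matched the RefSeq table at hand. The fit was tested on simulated data. Alternatives were RLE size factors, DESeq2 1.42.0, other count filters, all 16 libraries and leaving out each replicate. Figures were drawn with matplotlib 3.10.9.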

Additional observations from a re-analysis of the deposited data

Results flagged for a closer look

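In 11 of 85 groups of 4 libraries of the named loci, the highest or lowest library stood far from the other three. Chance alone flags about 1 in 20 such groups. Values are normalized counts.

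Among loci detected in DTY-IL only, LOC_Os11g34790 had a high library at 1137 in DTY-IL drought and LOC_Os11g36200 a low one at 80.3 in DTY-IL control. In Swarna drought, LOC_Os11g34820 and LOC_Os11g35660 each had a library at 0 beside 3 libraries with 1 count, and LOC_Os11g36190 had a library at 1.10 beside 3 at 0. These last are differences of a single count. LOC_Os11g34840 had a low library at 57.3 in DTY-IL control, and LOC_Os11g34980 a high one at 78.5 in DTY-IL drought.

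Among loci named for drought or level, LOC_Os11g34680 had a low library at 203 in DTY-IL control and a high one at 198 in Swarna drought. LOC_Os11g35620 had a high library at 37.8 in DTY-IL control, and LOC_Os11g34450 a low one at 7222 in DTY-IL drought. DTY-IL drought replicate 2 was the far library at LOC_Os11g34790, LOC_Os11g34980 and LOC_Os11g34450.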

How the results depend on the processing

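Of the alternative counts of members, 133 stayed within 1.5 times the main count and 4 did not. With all 16 libraries, 15 members were called for drought in DTY-IL and 33 in Swarna. DESeq2 called 3 members for the interaction as DEGs, and 6 by adjusted p alone. Leaving out single replicates gave 23 to 36 members for drought in DTY-IL, 41 to 54 in Swarna, 43 to 52 for the average, 27 to 33 between the genotypes under drought, 20 to 25 under control, 31 to 35 without overlap and 0 for the interaction. The lowest DTY-IL value, 23, was without DTY-IL drought replicate 3. No direction reversed for a named locus. Of the genotype values of named loci under the alternatives, 32 were counted as moved from the main fit and 768 as the same. In 7 alternatives LOC_Os11g34450 no longer passed for the average drought effect, and LOC_Os11g34860 passed for the interaction under DESeq2. The causes were not tested. Fitted genotype folds of loci at 0 in a genotype depend on the tool and are not given. Depth limits the 61 members that averaged under 10 normalized counts. No paired analysis was possible because the count columns carry their own numbers and not those of the sample labels.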
